A study of Mus musculus with 8 samples.

Results

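The genes described here are the opioid receptors and the opioid peptide precursors in the mouse ventral pallidum (VP). The genes were measured in a ribosome pulldown labelled as glutamatergic neurons and in the VP as a whole. They were chosen by name as Oprm1, Oprd1, Oprk1 and Oprl1 for the receptors and Penk, Pdyn and Pnoc for the precursors. Of these 7 genes, 6 had a row among the 14353 genes of the deposited table, and all 6 were over 1 CPM (counts per 1000000 reads) in at least 3 libraries and were tested. Oprd1, the delta receptor gene (chr4:132110726-132144486 of GRCm38), has no row and was not analysed here.

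All mice were homozygous for VGluT2-Cre and heterozygous for the RiboTag allele of Rpl22, and none was treated. In this cross, cells that express Cre under control of the Slc17a6 locus carry an HA tag on the ribosomal protein Rpl22, so the tag marks every cell that has ever expressed vGluT2 in the dissected tissue. Translating ribosome affinity purification with an HA antibody gave the TRAP libraries, labelled as glutamatergic neurons, and the INPUT libraries are labelled as all neurons and glia. Tissue was pooled from several mice of both sexes before each homogenate was split. Pool VP1.6 held 3 males and 4 females aged 9 to 12 weeks. Pools VP2.2 and VP2.11 each held 4 males and 6 females, and VP2.6 held 4 males and 7 females, all aged 10 to 16 weeks. With 1 library of each fraction per pool, n was 4 per fraction, from 38 mice. The labels call the second fraction Input, but the methods speak of unbound RNA when they come to the sequencing. The methods add that the punches may hold neighboring striatal tissue. They also state that such tissue lacks vGluT2 and so would not contaminate the pulldown.

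Opioid receptors are G protein-coupled receptors that act through inhibitory G proteins, opening inwardly rectifying potassium channels and closing voltage-gated calcium channels. Their ligands are short peptides cut out of larger precursor proteins by convertases at pairs of basic residues. Proenkephalin yields the enkephalins, which favor the mu and delta receptors, prodynorphin yields the dynorphins, which favor the kappa receptor, and pronociceptin yields nociceptin, the ligand of the receptor encoded by Oprl1. In the dorsal striatum, Penk marks the projection neurons that send their axons to the pallidum and Pdyn marks the projection neurons of the direct pathway. This division need not hold for the inputs of the VP. The VP receives a dense enkephalin innervation from outside its own cell bodies, which does not exclude Penk in cells of the VP.

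The peptide cores show how the 3 precursor genes relate to each other. In the GENCODE M21 transcripts of GRCm38, Penk encodes 7 enkephalin cores, 6 ending in methionine and 1 in leucine, all in exon 2 of 2. Pdyn encodes 3 cores, each the leucine form and all in exon 4 of 4. Pnoc encodes 1 nociceptin core, in exon 3 of 4. Every core follows 2 codons for basic residues. The lines below give the coding strand, 5′ to 3′, with the core codons in capitals and the 2 flanking codons on each side in lower case. The capitals of the nociceptin line mark only the first 4 codons of that longer peptide.
Penk core 1, Met form (chr4:4134328-4134354, minus strand): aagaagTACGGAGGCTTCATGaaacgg
Penk core 6, Leu form (chr4:4133935-4133961, minus strand): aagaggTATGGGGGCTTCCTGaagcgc
Pdyn core 1, Leu form (chr2:129688232-129688258, minus strand): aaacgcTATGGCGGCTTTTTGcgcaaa
Pdyn core 2, Leu form (chr2:129688124-129688150, minus strand): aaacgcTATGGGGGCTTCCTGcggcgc
Pdyn core 3, Leu form (chr2:129688067-129688093, minus strand): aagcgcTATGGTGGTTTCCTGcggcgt
Pnoc nociceptin core (chr14:65404875-65404898, minus strand): aaaaggTTTGGGGGCTTCaccggg

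The libraries were compared with limma on the deposited log2 CPM values, with the pool as a block. Across all 14249 genes tested, 2393 were lower in TRAP at an adjusted p under 0.05, or 16.8%, and 2199 were higher, or 15.4%. Slc17a6, which encodes vGluT2, rose by 2.55 on the log2 scale in TRAP (SE 0.24, limma adjusted p = 7.3e-06). Effective depth could be read from whole-read steps in VP2.2 (13.3 M reads in TRAP and 40.4 M in INPUT) and VP2.6 (12.8 M and 25.5 M), where 98.3% and 98.4% of low genes gave whole reads, and is unknown for the other pools. For 99.99% of the 14353 genes, a single level lay between the TRAP and the INPUT value of every pool, to within 0.01 on the log2 scale. Hence a gene lower in TRAP in all 4 pools was also a gene whose fractions did not overlap, and the SDs over libraries given here hold little of any offset between pools. The CPM given for a single library is the deposited value and need not equal its reads over its depth. A shift shared by both libraries of a pool leaves their TRAP minus INPUT difference unchanged. The p-values rest on the spread of TRAP minus INPUT among these 4 pools, which limma draws towards the spread of other genes at a similar level.

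Of the 6 genes tested, Penk and Pdyn fell in TRAP, whereas Pnoc, Oprm1, Oprk1 and Oprl1 did not pass the test in either direction. These 2 of 6 genes called stand beside 32.2% of all genes called in either direction and 16.8% lower in TRAP.

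Penk (chr4:4133531-4138819), the proenkephalin gene, measured 760.1 CPM in INPUT of VP1.6, 551 in VP2.2, 787 in VP2.6 and 446 in VP2.11. In TRAP it measured 147 CPM in VP1.6, 276 in VP2.2, 158 in VP2.6 and 204 in VP2.11. Every TRAP library lay below every INPUT library, as it did for 24.4% of all genes tested. The mean was 636 ± 165 CPM in INPUT and 196 ± 58.5 CPM in TRAP (SD, n = 4). Penk was 1.70 lower in TRAP on the log2 scale (SE 0.27, 95% interval of TRAP minus INPUT -2.28 to -1.13, limma adjusted p = 0.00041), so that INPUT was 3.26-fold higher and TRAP held 30.7% of the INPUT level. The drop was not equal among pools. TRAP minus INPUT was -2.37 in VP1.6 and -2.32 in VP2.6, against -1.0 in VP2.2 and -1.13 in VP2.11. An exon of A830012C17Rik on the opposite strand covers 233 exon bases of Penk, and whether the counting used strand is not given in the sources used here.

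Pdyn (chr2:129686565-129699844), the prodynorphin gene, measured 159 CPM in INPUT of VP1.6, 173 in VP2.2, 166 in VP2.6 and 128 in VP2.11. In TRAP it measured 70.1 CPM in VP1.6, 85.9 in VP2.2, 68.5 in VP2.6 and 57.3 in VP2.11. The fractions again did not overlap. The mean was 156 ± 19.7 CPM in INPUT and 70.4 ± 11.8 CPM in TRAP (SD, n = 4). Pdyn was 1.15 lower in TRAP on the log2 scale (SE 0.20, 95% interval of TRAP minus INPUT -1.59 to -0.72, limma adjusted p = 0.00089), with INPUT 2.23-fold higher and 44.9% of the INPUT level in TRAP. Unlike Penk, Pdyn dropped by nearly the same amount in each pool, with TRAP minus INPUT between -1.27 in VP2.6 and -1.01 in VP2.2. The SD of this difference over pools was 0.11 for Pdyn and 0.74 for Penk, which was not tested. In a bulk fraction, fewer cells that contain an mRNA and less of that mRNA per cell cannot be told apart.

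Pnoc (chr14:65400673-65425472), the pronociceptin gene, measured 18.0 CPM in INPUT of VP1.6, 15.5 in VP2.2, 13.7 in VP2.6 and 16.3 in VP2.11. In TRAP it measured 13.8 CPM in VP1.6, 15.9 in VP2.2, 18.9 in VP2.6 and 13.2 in VP2.11. TRAP was the higher fraction in 2 pools and the lower in the other 2, and the groups overlapped. The mean log2 difference was -0.05 (SE 0.27, 95% interval -0.62 to 0.52, limma adjusted p = 0.91), an interval of 0.65 to 1.43-fold for TRAP over INPUT.

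**Figure D1:**
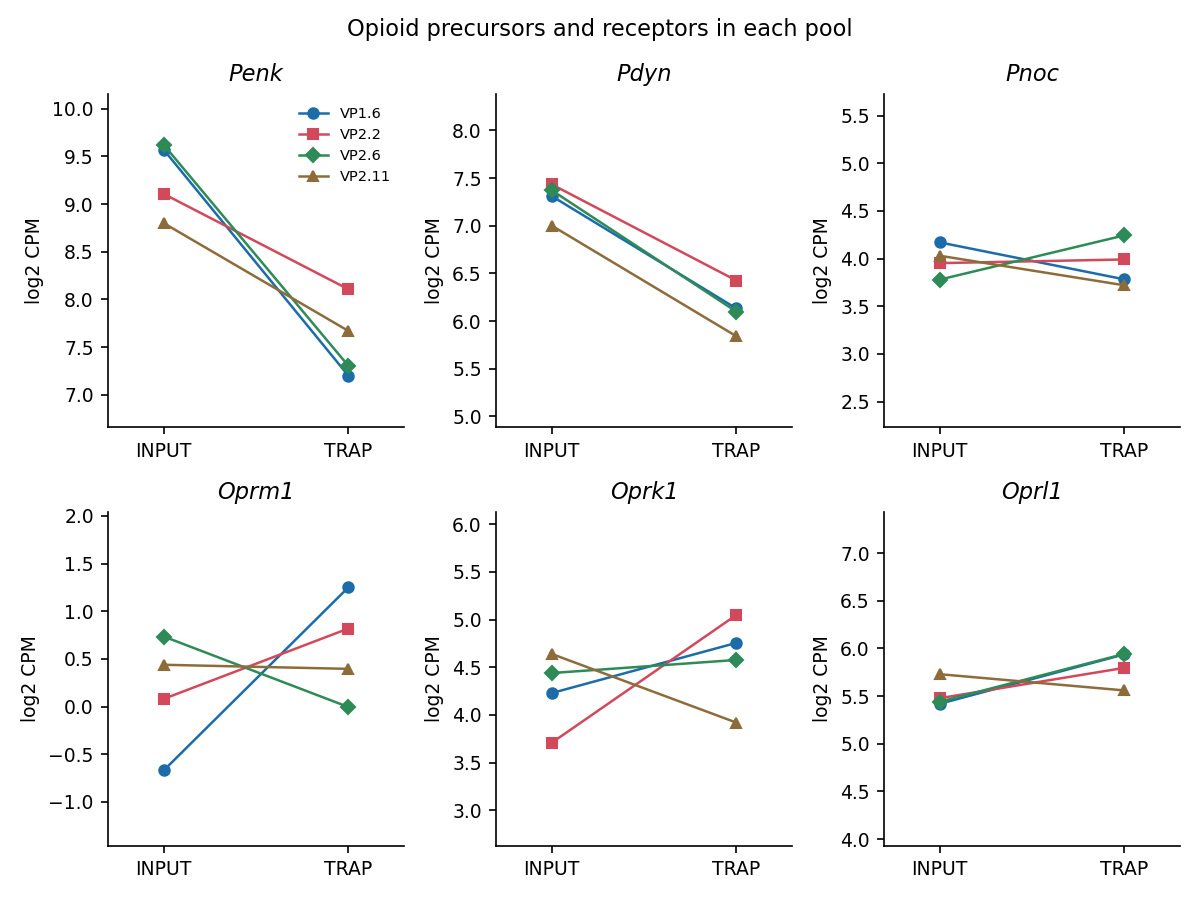
Log2 CPM of the 6 genes with a row (vertical axes, each spanning the same range of 3.5 log2 units) in INPUT and TRAP; each line joins the 2 libraries of a pool. Penk and Pdyn fall from INPUT to TRAP in all 4 pools, Penk most steeply in VP1.6 and VP2.6, while the lines of the other 4 genes run in both directions.

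Among the receptors, Oprl1 (chr2:181715016-181720985), the nociceptin receptor gene, had the highest CPM. In TRAP it measured 61.3 CPM in VP1.6, 55.6 in VP2.2, 61.5 in VP2.6 and 47.2 in VP2.11. In INPUT it measured 42.8 CPM in VP1.6, 44.6 in VP2.2, 43.5 in VP2.6 and 53.1 in VP2.11. TRAP exceeded INPUT in 3 pools and lay below it in VP2.11. The mean difference was 0.29 on the log2 scale (SE 0.22, 95% interval -0.18 to 0.77, limma adjusted p = 0.34), which spans 0.88 to 1.70-fold.

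Oprk1 (chr1:5588466-5606131), the kappa receptor gene, measured 27.0 CPM in TRAP of VP1.6, 33.1 in VP2.2, 23.9 in VP2.6 and 15.1 in VP2.11. In INPUT it measured 18.8 CPM in VP1.6, 13.1 in VP2.2, 21.7 in VP2.6 and 24.9 in VP2.11. TRAP was higher in 3 pools and lower in VP2.11, the same pool in which Oprl1 was lower. The mean difference was 0.32 on the log2 scale (SE 0.31, 95% interval -0.33 to 0.97, limma adjusted p = 0.45), or 0.79 to 1.96-fold. Without VP2.2 the difference was -0.019 and without VP2.11 it was 0.67.

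Oprm1 (chr10:6758506-7038198), the mu receptor gene, lay near the filter on low values and was over 1 CPM in 6 of 8 libraries. Its deposited values in TRAP were 2.38 CPM in VP1.6, 1.76 in VP2.2, 0.997 in VP2.6 and 1.32 in VP2.11. In INPUT they were 0.629 CPM in VP1.6, 1.06 in VP2.2, 1.66 in VP2.6 and 1.36 in VP2.11. The order of the fractions differed between pools, and the pools with a known depth rested on few reads, 29 in TRAP and 53 in INPUT of VP2.2 and 9 and 31 in VP2.6. The mean difference of 0.47 on the log2 scale (SE 0.65, limma adjusted p = 0.61) had a 95% interval of 0.53 to 3.64-fold for TRAP over INPUT. Without VP1.6 the difference was -0.015, and with quantile normalization it was 1.31. Exons of Ipcef1 on the opposite strand cover 96 exon bases of Oprm1.

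**Figure D2:**
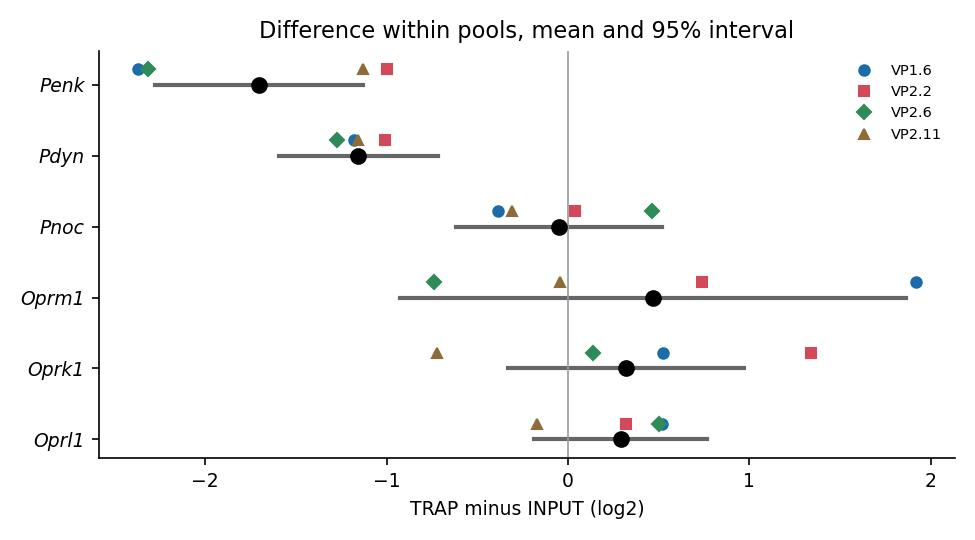
TRAP minus INPUT in log2 units for each gene: black points are means over 4 pools, grey bars the 95% intervals of the limma fit, and the small coloured symbols above them the single pools. The intervals of Penk and Pdyn lie wholly below 0, those of the other 4 genes include 0, and that of Oprm1 is the widest.

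Levels can be set side by side only per length of transcript. With CPM divided by kb of annotated exon, the order was the same in both fractions: Penk, Pdyn, Oprl1, Pnoc, Oprk1 and Oprm1. In TRAP, Penk averaged 120 ± 35.8 CPM per kb and Pdyn 24.4 ± 4.08 (SD, n = 4). The nociceptin system came next in TRAP, with Oprl1 at 15.03 ± 1.80 and Pnoc at 7.16 ± 1.21 CPM per kb. Oprk1 stood at 2.71 ± 0.818 and Oprm1 at 0.201 ± 0.0746 CPM per kb. Thus Penk, although much lower in TRAP than in INPUT, still had the highest level per kb of the 6 genes in TRAP, and it ranked 463 of 14249 genes there against 149 in INPUT, where it averaged 389 ± 101 CPM per kb. Pdyn ranked 2013 in TRAP and 1119 in INPUT, where it averaged 54.1 ± 6.82 CPM per kb. In INPUT, Oprl1 averaged 12.3 ± 1.28, Pnoc 7.37 ± 0.823, Oprk1 2.14 ± 0.550 and Oprm1 0.146 ± 0.0549 CPM per kb. In each fraction, every pair of neighbors differed in the same direction in all 4 libraries and by more than 2 SD of their within-library log2 difference. That SD holds little of any offset between pools, which makes 2 SD easier to exceed. With the length of the longest transcript in place of all exons, the order held. Pnoc and Oprk1 were then no longer apart by more than 2 SD in either fraction, at 7.16 and 5.30 CPM per kb in TRAP. The choice of length mattered most for Oprm1, which has 8037 exon bases over all its transcripts and 2420 in its longest, and its level in TRAP became 0.667 CPM per kb.

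**Figure D3:**
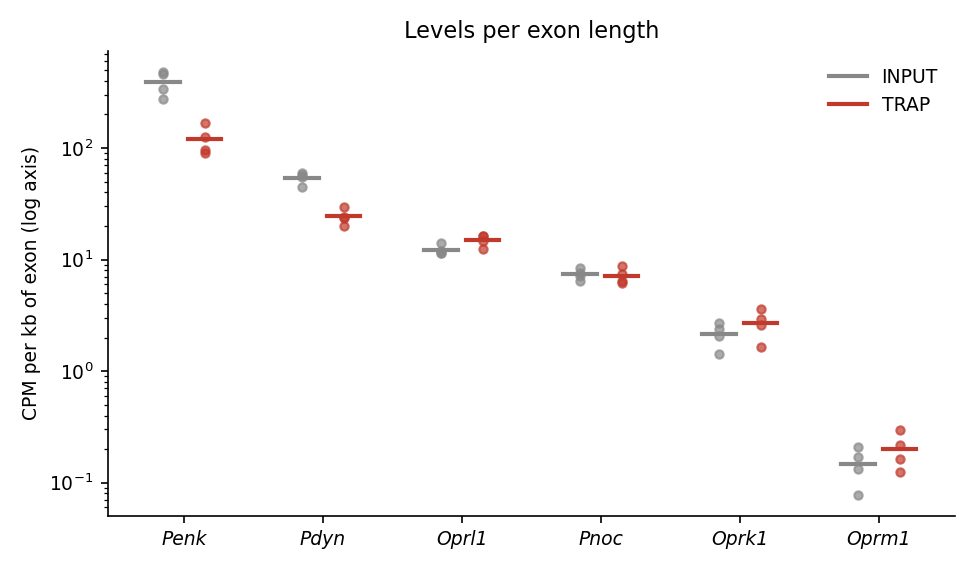
Levels of the 6 genes in CPM per kb of annotated exon on a log axis; points are the 4 libraries of each fraction and horizontal bars their means. The genes keep 1 order in both fractions, and TRAP and INPUT points separate for Penk and Pdyn but mix or lie close for the others.

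The balance between each receptor and the precursor of its ligand was compared within libraries. Relative to Pdyn, Oprk1 was higher in TRAP than in INPUT in all 4 pools, by 1.71 in VP1.6, 2.35 in VP2.2, 1.41 in VP2.6 and 0.44 in VP2.11 on the log2 scale. Relative to Penk, Oprm1 was higher in TRAP in all 4 pools, by 1.09 to 4.29, though with the few Oprm1 reads given above. Relative to Pnoc, Oprl1 was higher in TRAP by 0.04 to 0.91, with a mean of 0.34 ± 0.39 (SD, n = 4). For each of these 3 pairs the two-sided exact sign-flip permutation test over pools gave p = 0.125, the smallest that 4 pools allow, so none can pass a threshold of 0.05. With a trend of TRAP minus INPUT with exon length taken out, mean differences were -0.088 for Oprk1 and -1.04 for Pdyn. They were 0.11 for Oprm1 and -1.30 for Penk, and 0.31 for Oprl1 and 0.21 for Pnoc. All 3 mean shifts between receptor and precursor were thus smaller but kept their direction. The ratio of Penk to Pdyn fell in TRAP by 1.19 in VP1.6 and by 1.04 in VP2.6, but was 0.01 and 0.03 in VP2.2 and VP2.11. Its mean change of -0.55 ± 0.66 (SD, n = 4) did not pass the same exact permutation test (p = 0.50).

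Penk and Pdyn are themselves used as markers of striatal projection neurons, and most of the other markers examined also fell in TRAP. Of 9 such genes, 8 were lower in TRAP and 0 higher, beside 16.8% lower and 15.4% higher over all genes tested. The median log2 difference of the 9 was -1.40, against -0.05 over all genes tested. Their summed level ranged from 451 to 745 CPM in TRAP and from 1085 to 1527 CPM in INPUT, so these mRNAs were reduced but present in every TRAP library. Adora2a and Drd2, receptors of the same projection neurons as Penk, fell by 2.07 and 1.40 on the log2 scale (limma adjusted p = 0.00037 and 0.0041), and Drd1 and Tac1, which mark the same neurons as Pdyn, fell by 1.31 and 1.75 (limma adjusted p = 0.0027 and 0.00011). Pde10a, the only gene of the 9 that did not pass, was at -0.48 (limma adjusted p = 0.27) and was higher in TRAP in VP2.2, by 1.08. These genes were named after their values were seen. By pool, the median of the 9 genes was -1.70 in VP1.6, -0.94 in VP2.2, -1.86 in VP2.6 and -1.14 in VP2.11. Both pools in which Penk dropped most were thus those in which this median dropped most, though not every gene followed it. Ppp1r1b dropped most in VP2.2 (-1.70) and least in VP2.6 (-0.96). The median of 5 astrocyte markers was also lowest in VP1.6 and VP2.6. It was -1.80 in VP1.6, -0.33 in VP2.2, -1.47 in VP2.6 and -1.03 in VP2.11. Within pools, Penk differed from Drd2 by -0.62 to -0.06 and from Adora2a by 0.01 to 0.55 in its TRAP minus INPUT difference. Pdyn differed from Tac1 by 0.07 to 0.99 and from Drd1 by -0.81 to 0.81. Slc32a1, the vesicular GABA transporter gene, fell by 1.26 (limma adjusted p = 0.0055), while Gad1 (0.30, adjusted p = 0.47) and Gad2 (-0.05, adjusted p = 0.92), which encode the enzymes of GABA synthesis, did not pass the limma test. The 3 GABAergic markers summed to 918 to 1573 CPM in TRAP and 584 to 1394 CPM in INPUT. Both the highest TRAP sum and the lowest INPUT sum came from VP2.2. Gad1 and Gad2 were higher in TRAP in that pool alone, by 1.66 and 1.29, and lower in 3 pools each. The part of striatal tissue or of astrocytes in the Penk and Pdyn differences was not tested.

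**Figure D4:**
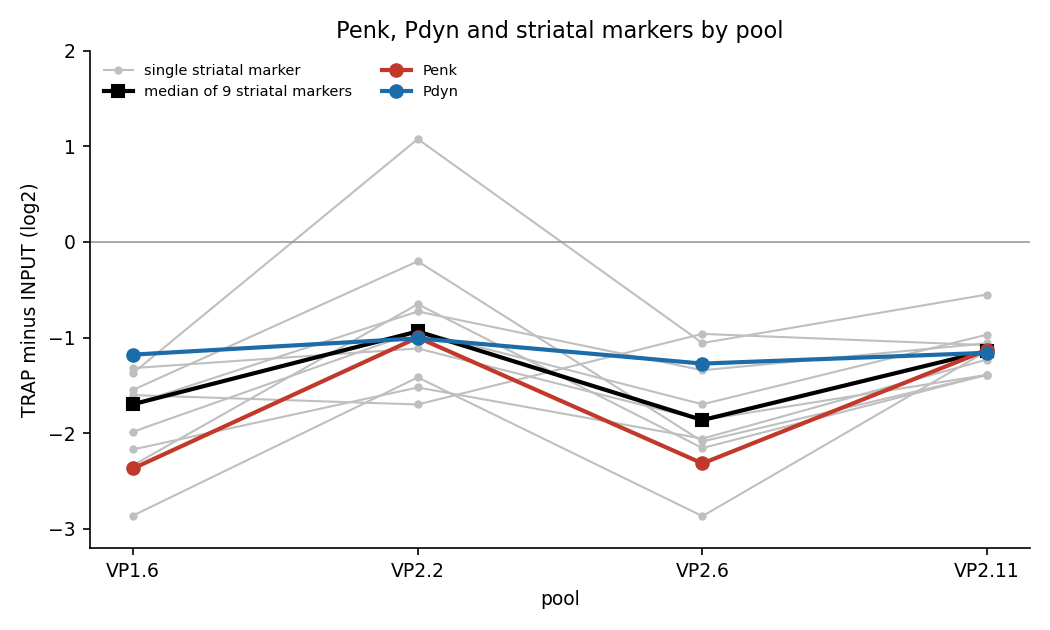
TRAP minus INPUT (log2) in each pool for Penk, Pdyn and 9 markers of striatal projection neurons, single markers in grey and their median in black; lines join values of a gene and carry no order. Penk and the marker median are lowest in VP1.6 and VP2.6, while Pdyn stays between -1.27 and -1.01.

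Markers of other cells the punches could hold were measured too. Of the glial markers, 4 of 5 astrocyte genes, 4 of 5 oligodendrocyte genes and 3 of 5 microglial genes were lower in TRAP and 0 were higher. Over all genes tested, 16.8% were lower and 15.4% higher, shares that stand behind each count in this paragraph. Summed over each list, TRAP held 150 to 253 CPM of the astrocyte genes against 343 to 502 CPM in INPUT, and 900.1 to 1631 CPM of the oligodendrocyte genes against 3506 to 3807. Markers of cortical and amygdalar glutamatergic neurons rose in 3 of 3 cases, from a summed 16.0 to 34.1 CPM in INPUT to 102 to 178 CPM in TRAP. Of the thalamic markers 1 of 2 rose, and of the hypothalamic markers 1 of 3 rose. Of the cholinergic markers 1 of 3 was lower and 2 did not pass, although the median of the 3 was 0.70 on the log2 scale. By pool this median ran from -0.29 in VP2.11 to 1.62 in VP2.2. The cholinergic markers summed to 87.8 to 137 CPM in TRAP and 39.4 to 84.1 CPM in INPUT. Of the endothelial markers 1 of 2 was higher. The endothelial markers summed to 5.60 to 28.9 CPM in TRAP and 1.46 to 5.82 CPM in INPUT. Counts of 1 gene in such short lists are too small to set against the shares over all genes. The levels of the opioid genes in TRAP are averages over all tagged cells, and the part of each cell type in them was not tested.

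The fourth opioid precursor gene, Pomc, which encodes beta-endorphin and is made mainly by hypothalamic neurons, was also lower in TRAP. It measured 4.85 CPM in TRAP of VP1.6, 1.17 in VP2.2, 0.880 in VP2.6 and 0.158 in VP2.11, against 5.17, 6.96, 6.55 and 6.77 CPM in INPUT. The deposited INPUT values lay close together, but they hold little of any offset between pools. TRAP minus INPUT ran from -0.09 in VP1.6 to -5.42 in VP2.11. Pomc fell by 2.74 on the log2 scale (SE 0.67, limma adjusted p = 0.0066), on 12 reads in TRAP and 224 in INPUT of VP2.2 and on 13 and 199 in VP2.6. Over pools the SD of the Pomc difference was 2.18, and limma drew its SE down towards the spread of other genes. Ackr3, an atypical receptor that takes up opioid peptides, did not pass the test (-0.08, limma adjusted p = 0.91).

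The rest of the opioid pathway was taken as 6 lists with 54 genes tested, Pomc and Ackr3 included, of which 17, or 31.5%, passed the test in either direction, beside 32.2% of all genes. Without VP1.6 the number was 10. Of the genes for release of the peptides from their precursors, 3 of 7 were higher in TRAP and 1 was lower, with a median of 0.58 on the log2 scale, against a median of -0.05, 15.4% higher and 16.8% lower over all genes. Pcsk1, one of the convertases that cut at basic pairs, rose by 1.73 (SE 0.33, limma adjusted p = 0.0014), from 6.80 ± 3.38 CPM in INPUT to 21.01 ± 3.16 CPM in TRAP (SD, n = 4). Pcsk2, the other neuronal convertase, rose by 0.68 (SE 0.21, limma adjusted p = 0.023). Cpe, the carboxypeptidase that trims the remaining basic residues, was at 531 CPM in TRAP and 490 in INPUT and did not pass the test (0.12, limma adjusted p = 0.72). Pcsk1n, whose product inhibits the convertase encoded by Pcsk1, fell by 1.40 (limma adjusted p = 0.0077). Among genes for breakdown of the peptides, 1 of 6 was higher and 1 lower, with a median of 0.10. Npepps, a puromycin-sensitive aminopeptidase, rose by 1.35 (limma adjusted p = 0.0006) and Mme, which encodes neprilysin, fell by 1.65 at means of 4.57 CPM in INPUT and 1.86 CPM in TRAP (limma adjusted p = 0.028).

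Downstream of the receptors, the lists for G proteins and for effectors differed in their medians. Of 12 G protein subunit genes, 0 were higher and 2 lower, with a median of -0.13, beside the same 15.4% higher and 16.8% lower over all genes that stand behind each count in this paragraph. Gng7, a gamma subunit abundant in striatum, fell by 3.15 (limma adjusted p = 2.2e-07), while Gnao1, the most abundant inhibitory alpha subunit of brain, was at 337 CPM in TRAP and 358 in INPUT (-0.09, limma adjusted p = 0.79). Of 12 effector genes, 3 were higher and 1 lower, with a median of 0.63. Of the subunits of the G protein-gated potassium channel, Kcnj9 rose by 1.35 (SE 0.28, limma adjusted p = 0.0025), from 7.50 ± 2.04 CPM in INPUT to 18.6 ± 1.19 CPM in TRAP (SD, n = 4). Kcnj3 rose by 1.09 (SE 0.27, limma adjusted p = 0.0074), from 19.6 ± 5.85 to 40.3 ± 5.28 CPM. Kcnj6 had a difference of 1.27 but low and uneven values, and did not pass (SE 0.67, limma adjusted p = 0.16). Adcy5, the main adenylyl cyclase of striatal neurons, fell by 1.04 (limma adjusted p = 0.0039). Of 15 genes for desensitization and trafficking, 2 were higher and 2 lower, with a median of 0.12. Gprasp1, whose product sorts opioid receptors to lysosomes, rose by 1.32 (limma adjusted p = 0.0014), and Rtp4, a chaperone for mu and delta receptors at the cell surface, fell by 1.17 (limma adjusted p = 0.042).

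**Figure D5:**
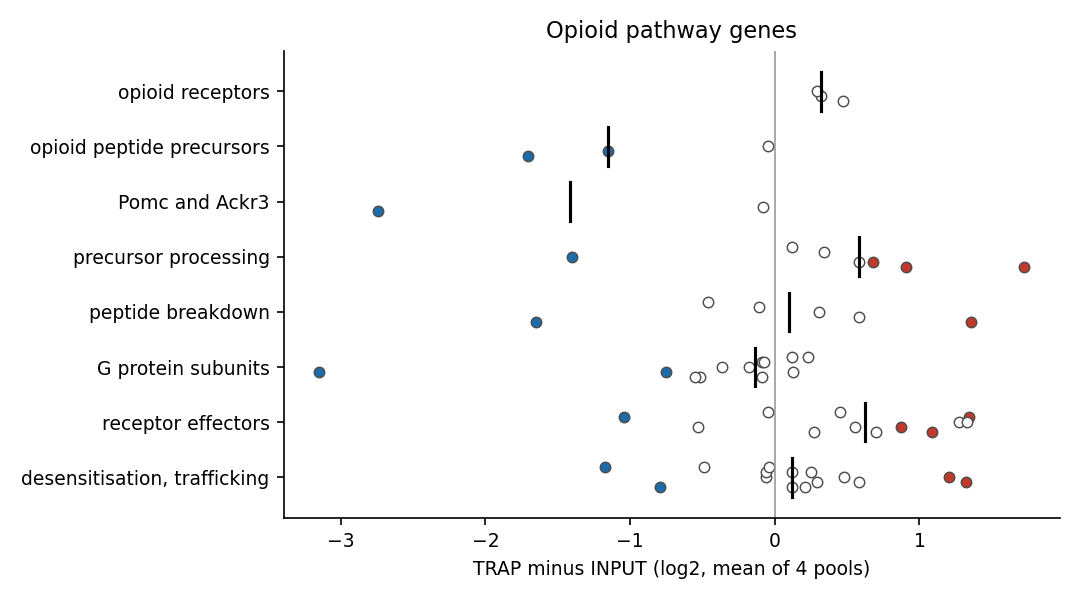
TRAP minus INPUT (log2, mean of 4 pools) for the opioid receptors, the precursors and 6 lists of other pathway genes; each circle is a gene, filled red where higher and blue where lower at an adjusted p under 0.05 and open where it did not pass, and vertical black bars are list medians. Penk, Pdyn, Pomc and Gng7 lie to the left, and Pcsk1, Npepps, Kcnj9 and Gprasp1 to the right.

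The genes whose log2 CPM ran most like each opioid gene over the 8 libraries were listed as a description, since all genes share the libraries and their fraction difference. Penk was followed most closely by Pde1b (Pearson r = 0.998) and Gatm (0.993), and 332 genes had an r over 0.95 with it. Pdyn was followed by Litaf (0.994) and Gng7 (0.994), with 548 genes over 0.95. Those numbers fell to 101 for Oprl1, 76 for Oprk1, 16 for Oprm1 and 9 for Pnoc. The closest genes were Cryz (0.996) and Ap3m2 (0.994) for Oprl1, and Cerk (0.999) and Dis3l (0.995) for Oprk1. For Oprm1 they were Col4a2 (0.994) and Slc16a7 (0.991), and for Pnoc they were Arhgap23 (0.994) and Dgat1 (0.977).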

How the data were processed

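The authors aligned reads with STAR (2.5.1a in the submitters' processing notes), counted them per gene with featureCounts, scaled libraries by TMM and deposited log2 CPM per gene and library. Their columns of fold changes, p-values and confidence limits were not used. The 45 repeated entries were left out. The test, on genes over 1 CPM in 3 or more libraries, was limma 3.58.1 (eBayes with trend, R 4.3.3), pool as block, Benjamini-Hochberg threshold 0.05. Pools pair the libraries because both come from 1 homogenate; same-pool deviations correlated at -0.745 to -0.495. Without the block, 6830 genes were called in place of 4592, with 4575 shared; Penk and Pdyn were called in both. Values of INPUT VP1.6 and of both VP2.11 libraries are rounded to 3 significant digits. How the values came to share 1 level between the fractions of all pools is not given in the sources used here. Depth was sought in whole-read steps of low genes (tolerance 1e-06 on the log2 scale). Lengths and positions came from GENCODE M21. Members and lists were chosen with earlier results of these data known. Named genes were all members, their 2 most similar genes by Pearson r, each list's most changed gene called in each direction, and Pomc, Pcsk1, Pcsk2, Cpe, Kcnj3, Kcnj6, Kcnj9, Gnao1, Slc17a6 and markers beside a result. Ackr3, Slc32a1, Gad1, Gad2, Adora2a, Drd1, Drd2, Tac1, Pde10a and Ppp1r1b were named after their values were seen.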

Additional observations from a re-analysis of the deposited data

How the results depend on the processing

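Of the 6 receptor and precursor genes tested, Penk and Pdyn were the only ones called in all 14 alternatives, which left out the replicate block, a pool, the filter or the trend, or changed the scaling, weights, filter, offset, length correction or threshold. Penk ranged from -2.04 to -1.30 (limma adjusted p from 5.5e-07 to 0.02) and Pdyn from -1.28 to -1.04 (2.4e-05 to 0.019). Oprl1 stayed between 0.21 and 0.45 and was never called. Signs of the other genes, none called, were not stable. Oprk1 was -0.088 with the exon length trend taken out and -0.019 to 0.67 with 1 pool left out. Oprm1 was -0.015 to 0.87 with 1 pool left out, the lowest without VP1.6, 1.31 with quantile normalization, 0.26 with log2(CPM + 1) and 0.11 with the length trend taken out, and it was not tested where all libraries had to exceed 1 CPM. Pnoc was 0.027 with array weights, 0.21 with the length trend taken out and -0.22 to 0.064 with 1 pool left out. The pathway lists held 10 to 17 called genes with 1 pool left out, and 24 without the replicate block, where 5 effector genes in place of 3 were higher, 4 trafficking genes in place of 2, 2 breakdown genes in place of 1 and 4 processing genes in place of 3, and 5 microglial genes in place of 3 and 3 G protein genes in place of 2 were lower. Without the block 1 oligodendrocyte gene (Mag) and 1 cholinergic gene (Chat), named after their values were seen, were also higher. The number of all genes called was 6830 without the block, 6013 with array weights, 3312 without the trend, 3112 at an absolute log2 difference of at least 1 and 3232 to 4156 with 1 pool left out. The causes were not tested. Oprm1 rests on few reads where depth is known, and depth is unknown in VP1.6 and VP2.11.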
